A study of Mus musculus with 8 samples.

Results

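The 54 genes described here encode the proteins that copy DNA, make its nucleotide precursors and open S phase. They were taken by symbol from a gene-level table of estimated read counts, whose Ensembl identifiers were matched to GENCODE M21, and all 54 were found among its 35852 genes. All 54 had enough counts to be tested, in a fit of all 8 libraries that held 13272 genes and in a fit of 6 libraries that held 13639. The RNA came from bEnd3, a line of mouse brain endothelial cells that was immortalised with the middle T antigen of polyomavirus, a background that both groups share. After a night in DMEM with fetal calf serum, 4 samples received 5 µM corticosterone, the main glucocorticoid hormone of mice, for 24 h, and 4 are labelled medium. Corticosterone stands in the treatment protocol of the medium samples too, and the labels mention no vehicle. The labels do not tell whether replicates are separate cultures, so all p-values below measure the spread between these samples, which may be technical.

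Replication begins at origins, which are bound by the origin recognition complex. In G1 phase Cdc6 and Cdt1 load the MCM2-7 helicase there, cyclin E and its kinase help to start S phase, and Cdc45 and the GINS complex turn the loaded helicase into a moving one. DNA polymerase alpha with its primase starts each new strand, polymerases delta and epsilon extend it on the PCNA clamp, and ribonucleotide reductase, thymidylate synthase and thymidine kinase supply deoxynucleotides. Many of these genes are transcribed at the border of G1 and S by E2F factors, which bind a short GC-rich core close to the start site.

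Because these genes are known for shared E2F control, their promoters were searched for that core. RefSeq promoter windows of GRCm38.p6, 250 bases before to 50 after a start site, were matched by symbol for 45 of the 54 genes. The core was searched on both strands in 4 spellings, the first of them TTCCCGC, the second spelling TTCGCGC, the third spelling TTGCCGC and the fourth spelling TTGGCGC. The 120 bases before the start are printed for 8 genes, 5' to 3' on the strand of the gene, with cores in capitals. The first 5 show a core in genes that fell with corticosterone, Orc3 shows a core in a gene that did not pass the test, and Mcm2 and Pcna show no core in genes that fell.
Mcm6 (chr1:128359706-128359825, minus strand): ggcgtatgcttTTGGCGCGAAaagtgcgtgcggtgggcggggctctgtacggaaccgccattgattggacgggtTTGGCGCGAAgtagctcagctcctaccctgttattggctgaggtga
Orc1 (chr4:108579334-108579453, plus strand): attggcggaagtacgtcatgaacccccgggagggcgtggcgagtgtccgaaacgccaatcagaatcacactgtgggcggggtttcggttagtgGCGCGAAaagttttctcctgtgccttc
Chaf1a (chr17:56040296-56040415, plus strand): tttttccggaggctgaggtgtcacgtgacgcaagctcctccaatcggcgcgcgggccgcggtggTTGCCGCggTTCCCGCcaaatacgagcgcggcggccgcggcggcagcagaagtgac
Rrm1 (chr7:102441575-102441694, plus strand): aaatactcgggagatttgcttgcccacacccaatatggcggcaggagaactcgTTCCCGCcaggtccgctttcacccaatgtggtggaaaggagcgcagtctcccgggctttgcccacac
Rfc3 (chr5:151651209-151651328, minus strand): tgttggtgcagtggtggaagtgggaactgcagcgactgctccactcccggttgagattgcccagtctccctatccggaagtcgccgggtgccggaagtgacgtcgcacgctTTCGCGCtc
Orc3 (chr4:34614943-34615062, minus strand): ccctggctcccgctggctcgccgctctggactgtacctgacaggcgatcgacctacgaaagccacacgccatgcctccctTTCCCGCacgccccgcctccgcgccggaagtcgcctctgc
Mcm2 (chr6:88898781-88898900, minus strand): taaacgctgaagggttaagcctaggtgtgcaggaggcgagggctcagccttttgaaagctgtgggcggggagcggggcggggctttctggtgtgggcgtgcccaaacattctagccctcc
Pcna (chr2:132253181-132253300, minus strand): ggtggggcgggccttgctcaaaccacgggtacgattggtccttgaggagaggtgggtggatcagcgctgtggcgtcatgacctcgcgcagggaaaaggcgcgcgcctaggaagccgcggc

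In Mcm6 each of the runs in capitals holds a core on either strand, and the matches overlap. A core lay in the 300-base window of 29 of the 45 genes, or 64.4%, against 10.9% of the 27025 genes in the RefSeq table and 19.2% of the 9813 tested genes that it holds. Of the 29 genes with a core 26 fell (median log2 fold change -0.28), and of the 16 without a core 12 fell (median -0.23). Among all tested genes 28.7% of the 1888 with a core were lower with corticosterone, as were 20.5% of the 7925 without. The CCAAT box (CCAAT) was in 62.2% of the 45 genes and in 43.2% of tested genes, the GC box (GGGCGG) in 36 of the 45 and in 68.1%, and the cell cycle homology region (spelled as TTTGAA or in its other version as TTTAAA) in 26.7% and 22.9%. A single arm of the glucocorticoid receptor's palindrome (AGAACA) was in 15.6% and 15.1%, and no member window held the full palindrome with its 3-base spacer, which is in 0.0102% of tested genes. The motifs were searched independently and may overlap, and a match is a stretch of letters and not a measured binding site.

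With corticosterone 46 of the 54 genes fell at a Benjamini-Hochberg adjusted p under 0.05 (edgeR quasi-likelihood test) and 0 rose. Over all 13272 genes tested, 20.6% fell and 19.5% rose, which makes 40.1% changed. All 54 fold changes were below 0, as were 50.9% of those of all tested genes. The median log2 of the 54 was -0.26, that is 0.834 of medium, against a median of -0.0046 over all genes. The changes were small in size: 44 genes were at least 10% below medium, 19 at least 20%, and 0 at least 2-fold. The shares of all tested genes at these cuts were not computed, and the lower quartile of their log2 fold changes was -0.137. The edgeR count of 0 higher stayed 0 at an unadjusted p under 0.05, where 50 were lower. The shares of all tested genes at that unadjusted threshold were not computed, so the 50 cannot be set against them. DESeq2 and limma-trend also called 0 higher. Bulk RNA cannot tell fewer cells in S phase from less RNA of these genes per cell.

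The summed level of the 54 genes was 4046, 4135, 3992 and 4043 counts per 1000000 (CPM) in the corticosterone libraries and 4783, 4834, 5021 and 4905 CPM in the medium libraries, in the order of replicates 1 to 4 that is used throughout. The groups did not overlap in this sum. In 44 genes every corticosterone library was below every medium library, which held for 20.6% of all tested genes, and in 10 the groups overlapped. CPM are scaled by TMM, and library totals ranged from 19.7 to 46.2 M estimated counts, where M is 1000000 counts.

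Corticosterone replicates 1 and 2 were quantified with a different effective transcript length from the other 6 libraries, so the comparison was repeated without them. There 46 genes fell and 0 rose, where 18.0% of all tested genes fell and 18.4% rose (36.4% changed), and the median log2 fold change was -0.27. Every remaining corticosterone library was below every medium library in 49 genes, as in 25.4% of all genes. The 2 sets of 46 shared 43 genes. Orc1, Mcm8 and Gins3 fell in the fit of 8 libraries alone, and Mcm9, Gins4 and Pold2 in the fit of 6 alone. DESeq2 did not call Orc1, Mcm8 and Gins3 in 8 libraries (adjusted p = 0.0799, 0.0977 and 0.0846). In 6 libraries it did not call Gmnn and Orc6 (0.0861 and 0.0575), nor Mcm9, Gins4 and Rpa3. Leaving out another of the 6 libraries ended further calls there, and where 1 corticosterone library remained it was assumed to vary like the medium ones. Without corticosterone replicate 3 the edgeR adjusted p was 0.0734 for E2f2, 0.191 for Gmnn, 0.0982 for Orc6, 0.0946 for Pold1, 0.0653 for Prim2 and 0.286 for Rfc2. Without corticosterone replicate 4 it was 0.0679 for Gmnn, 0.0633 for Orc6 and 0.0511 for Pold1, and without medium replicate 4 it was 0.0512 for Gmnn. The losses of Mcm9, Gins4, Pold2 and Rpa3 are given with those genes. On the deposited TPM, which are divided by effective length, limma-trend with a pseudocount of 0.5 called 18 of the 54 genes lower in 8 libraries and 37 in 6. Over all genes that it tested, 588 of 12772 were lower in 8 libraries and 1558 of 12633 in 6. Corticosterone replicates 1 and 2 were both above replicates 3 and 4 in 18 genes, both below them in 6, and overlapped them in 30. The same shares over all tested genes were not computed, so these counts are not read as a trait of the member genes.

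**Figure D1:**
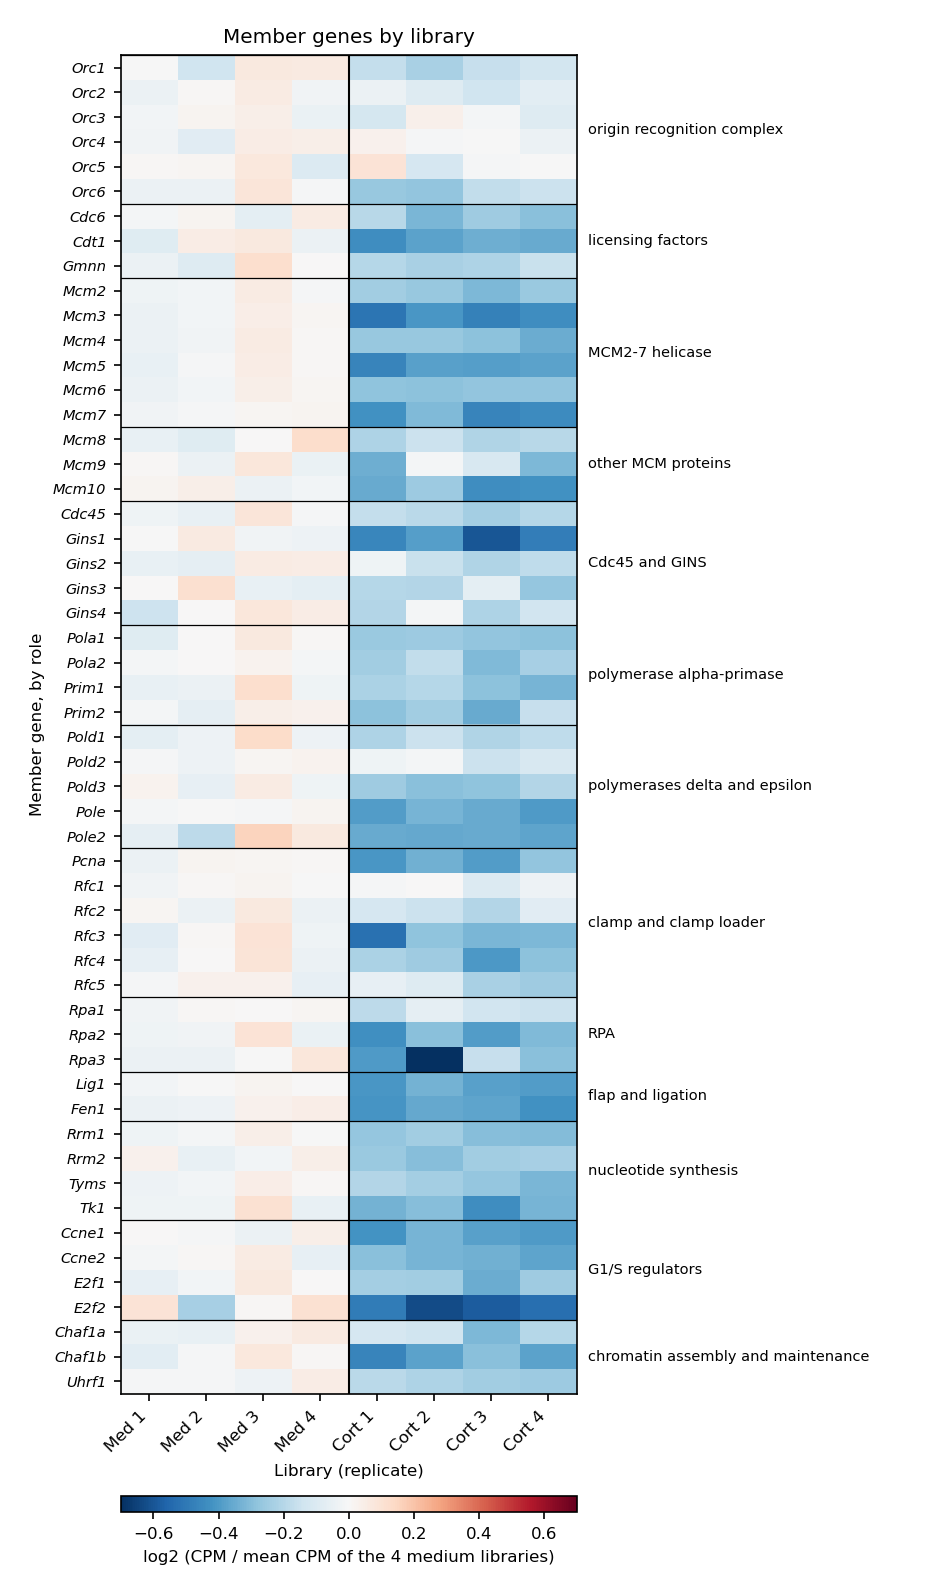
Each row is a member gene, grouped by role, and each column a library; the color is the log2 of its CPM over the mean CPM of the 4 medium libraries. The corticosterone columns are blue for most genes, apart from Orc2 to Orc5, Pold2 and Rfc1, which stay pale.

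**Figure D2:**
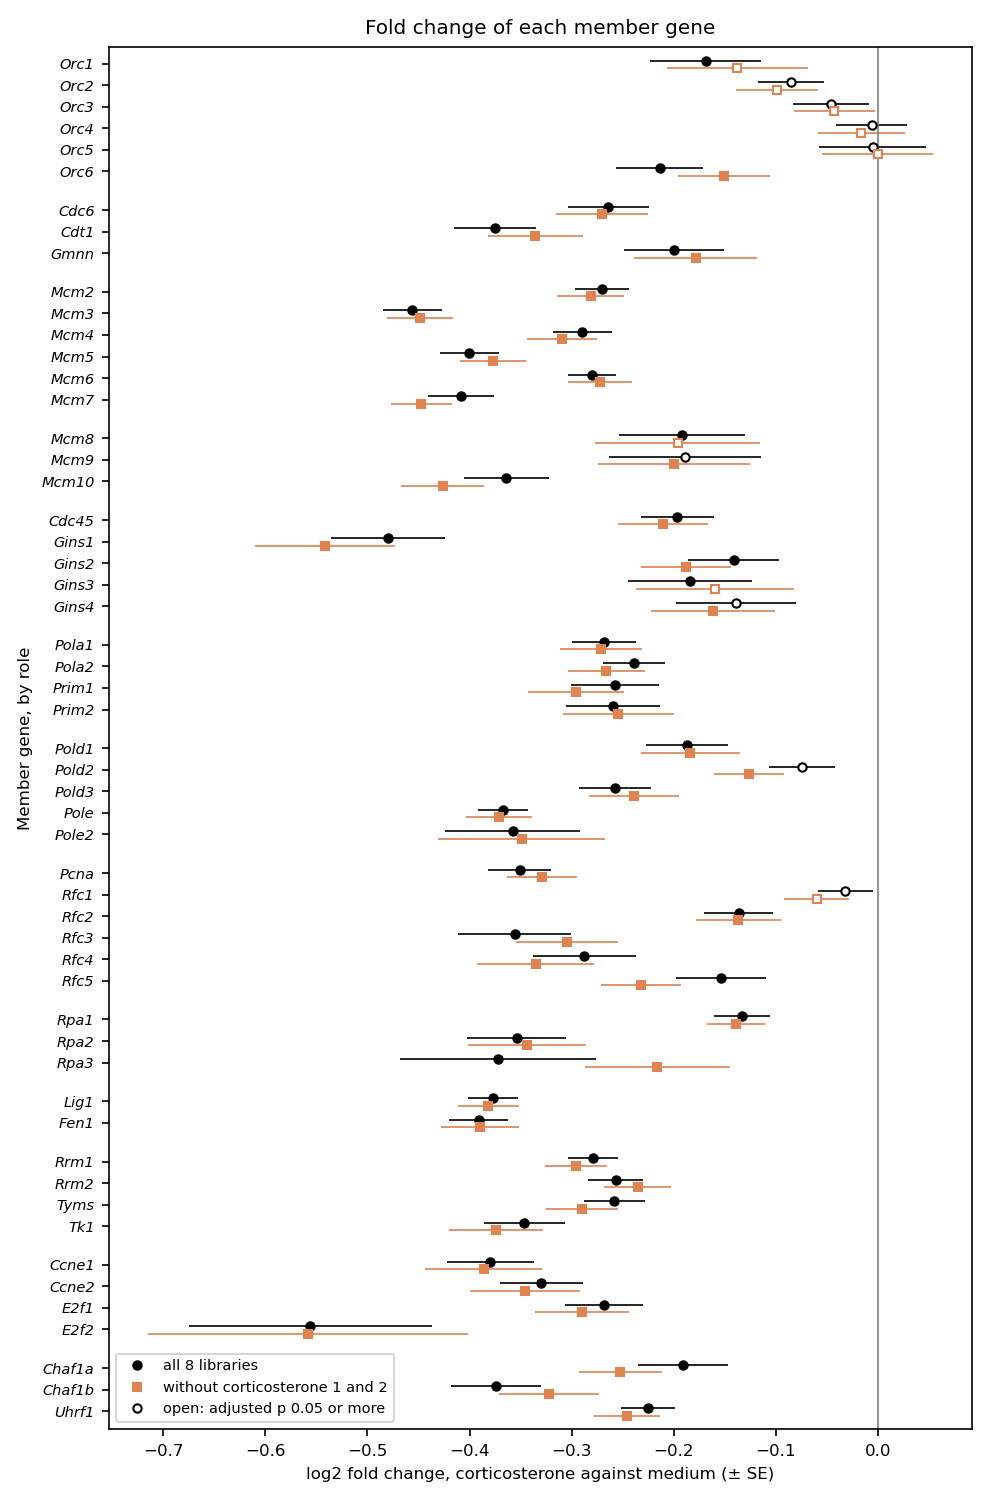
Points are log2 fold changes of corticosterone against medium with their SE, circles for all 8 libraries and squares without corticosterone replicates 1 and 2; open symbols have an adjusted p of 0.05 or more. All circles lie below 0, from -0.56 for E2f2 to -0.0052 for Orc5.

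The origin recognition complex marks origins, and of the 13 role groups its median was the nearest to 0. Orc1 and Orc6 fell, Orc2, Orc3, Orc4 and Orc5 did not pass, and the median log2 fold change of the 6 genes was -0.065. Positions are those of GENCODE M21 on GRCm38, counted from 1, and the error of a log2 fold change, after the sign ±, is its SE. Orc6, the small subunit (ENSMUSG00000031697.12, chromosome 8, 85299632 to 85308278), had 35.1, 34.8, 37.4 and 38.04 CPM with corticosterone and 40.9, 41.04, 44.7 and 41.9 CPM in medium. The groups were apart, with a log2 fold change of -0.21 ± 0.043 and an edgeR adjusted p = 0.00147. Orc1, the large subunit, had 15.2, 14.6, 15.3 and 15.6 CPM with corticosterone. In medium it had 16.98, 15.5, 17.9 and 17.8 CPM, and medium replicate 2 lay within the range of the corticosterone libraries. Its log2 fold change was -0.17 ± 0.055 (edgeR adjusted p = 0.0265), and in 6 libraries -0.14 ± 0.069 (adjusted p = 0.136). The call of Orc1 ended without corticosterone replicate 2 (adjusted p = 0.0698) or without medium replicate 1, 3 or 4 (0.0575, 0.0696 and 0.0789).

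The core subunits Orc2, Orc3, Orc4 and Orc5 hold the complex together on DNA. Nif3l1, on the opposite strand, shares 16.8% of the sequence of Orc2, counted as described with the processing. Nif3l1 did not pass (log2 fold change 0.068, edgeR adjusted p = 0.294), and whether reads from the shared part were told apart is not known. Orc2 had 56.2, 54.5, 52.6 and 55.2 CPM with corticosterone and 56.4, 58.2, 60.3 and 56.9 CPM in medium. Its corticosterone libraries were all below the medium ones, by a log2 fold change of -0.085 ± 0.032 with an edgeR adjusted p of 0.0515, which was 0.0457 without corticosterone replicate 1. Orc3 had 57.01, 63.7, 61.6 and 58.4 CPM with corticosterone and 61.4, 63.05, 63.9 and 60.2 CPM in medium. Orc4 had 54.2, 52.6, 52.9 and 51.5 CPM against 52.2, 50.3, 55.02 and 54.7 CPM. Orc5 had 29.2, 25.2, 27.1 and 27.2 CPM against 27.4, 27.5, 28.7 and 25.5 CPM. The groups overlapped in all 3, and their log2 fold changes were -0.046 ± 0.037, -0.0060 ± 0.035 and -0.0052 ± 0.052, with edgeR adjusted p-values of 0.364, 0.913 and 0.953. The sign of Orc4 and Orc5 turned above 0 in some of the alternative fits given in the closing section.

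All 3 licensing factors fell. Cdt1, which brings the helicase to the origin (ENSMUSG00000006585.3, chromosome 8, 122568015 to 122573554), had 38.8, 40.6, 41.5 and 41.2 CPM with corticosterone and 49.7, 54.5, 55.1 and 51.1 CPM in medium. No corticosterone library reached the lowest medium library, and its log2 fold change was -0.37 ± 0.040 (edgeR adjusted p = 9.25e-06). Gmnn, which encodes geminin, the inhibitor of Cdt1, had 22.4, 21.9, 22.1 and 23.05 CPM with corticosterone and 24.99, 24.1, 27.9 and 25.8 CPM in medium. The groups were also apart, by a smaller log2 fold change of -0.20 ± 0.049 (edgeR adjusted p = 0.0057). Cdc6, the ATPase that works beside Cdt1, went from 43.1 ± 1.58 CPM in medium to 35.9 ± 1.36 CPM (mean ± SD, n = 4, with no overlap, log2 fold change -0.26 ± 0.040, edgeR adjusted p = 0.000166).

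The 6 subunits of the replicative helicase all fell, from -0.27 for Mcm2 to -0.46 for Mcm3 on the log2 scale, and the groups were apart for each of them. Mcm3 (ENSMUSG00000041859.10, chromosome 1, 20802968 to 20820312) had 160.5, 172, 165 and 169 CPM with corticosterone and 222, 226, 236 and 231 CPM in medium. It fell to 0.729 of medium (log2 fold change -0.46 ± 0.029, edgeR adjusted p = 7.85e-08). Mcm5 (ENSMUSG00000005410.6, chromosome 8, 75109569 to 75128439) had 212, 225, 224 and 225 CPM with corticosterone and 282, 291, 303 and 294 CPM in medium. The corticosterone libraries lay closely together apart from replicate 1, which was lower, and the log2 fold change was -0.40 ± 0.029 (edgeR adjusted p = 2.49e-07). Mcm2 (ENSMUSG00000002870.8, chromosome 6, 88883474 to 88898780), a common marker of cells licensed to divide, had 178, 175, 169 and 176 CPM with corticosterone. In medium it had 207, 208, 219 and 209 CPM, and the log2 fold change was -0.27 ± 0.027 (edgeR adjusted p = 4.69e-06). The other 3 subunits fell by amounts between those of Mcm2 and Mcm3. Mcm7 went from 195 ± 2.98 to 147 ± 7.03 CPM (mean ± SD, n = 4, log2 fold change -0.41 ± 0.032, edgeR adjusted p = 6.17e-07), and 66.6% of its 31-base stretches occur in no other gene, while its pseudogene Gm5487 never exceeded 7.48 counts. Mcm4 went from 177 ± 5.45 to 145 ± 3.76 CPM (log2 fold change -0.29 ± 0.029, edgeR adjusted p = 4.91e-06). Mcm6 went from 235 ± 5.87 to 194 ± 0.578 CPM (log2 fold change -0.28 ± 0.024, edgeR adjusted p = 1.2e-06), with corticosterone libraries that hardly differed. The summed level of the 6 subunits was 1037 to 1070 CPM with corticosterone and 1304 to 1382 CPM in medium.

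The other MCM proteins are not part of that ring. Mcm10, a scaffold that helps to fire origins (ENSMUSG00000026669.14, chromosome 2, 4989714 to 5012791), had 39.9, 42.7, 37.8 and 38.04 CPM with corticosterone and 51.6, 52.4, 49.5 and 50.4 CPM in medium. It fell with no overlap (log2 fold change -0.36 ± 0.042, edgeR adjusted p = 1.67e-05), and replicates 3 and 4 were the lowest. Mcm8 and Mcm9 form a helicase used in homologous recombination. Mcm8 had 9.40, 9.86, 9.44 and 9.57 CPM against 10.6, 10.3, 10.95 and 11.9 CPM in medium. Its groups were apart at a low level, with a log2 fold change of -0.19 ± 0.062, an edgeR adjusted p of 0.026 in 8 libraries and 0.0675 in 6. That call also ended without corticosterone replicate 1, 3 or 4 (adjusted p = 0.0663, 0.0603 and 0.0582) or medium replicate 4 (0.0883). Asf1a, on the opposite strand, shares 15.8% of the sequence of Mcm9. Asf1a had a mean of 33.2 CPM in medium and fell as well (log2 fold change -0.20, edgeR adjusted p = 0.00119). Whether reads from the shared part were told apart is not known, and their part in the change of Mcm9 was not tested. Mcm9 had 11.3, 14.2, 13.3 and 11.5 CPM against 14.4, 13.9, 15.1 and 13.9 CPM in medium. Corticosterone replicate 2 lay among the medium libraries, and the edgeR adjusted p of Mcm9 was 0.0627 in 8 libraries (log2 fold change -0.19 ± 0.075), 0.0117 without that replicate alone and 0.0435 in 6. The call in 6 libraries ended without corticosterone replicate 4 (log2 fold change -0.10, adjusted p = 0.445), without medium replicate 1, 2 or 3 (0.0598, 0.0531 and 0.0721) and in DESeq2 (0.155).

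Cdc45 and the 4 GINS subunits complete the active helicase, and 4 of the 5 fell. Gins1 (ENSMUSG00000027454.10, chromosome 2, 150905400 to 150931280) had 11.97, 12.6, 10.8 and 11.7 CPM with corticosterone and 16.4, 17.2, 16.1 and 16.1 CPM in medium. It fell to 0.717 of medium with no overlap (log2 fold change -0.48 ± 0.056, edgeR adjusted p = 1.88e-05). Gins4, its partner in the complex, had 28.1, 32.03, 27.9 and 29.4 CPM with corticosterone and 29.2, 32.4, 34.2 and 33.5 CPM in medium. The groups overlapped, and the edgeR adjusted p was 0.0814 in 8 libraries (log2 fold change -0.14 ± 0.059) and 0.047 in 6. In 8 libraries it was 0.0187 without corticosterone replicate 2 and 0.0236 without medium replicate 1. The call in 6 libraries ended without corticosterone replicate 3 or 4 (adjusted p = 0.305 and 0.0917), without medium replicate 2, 3 or 4 (0.0924, 0.0711 and 0.112) and in DESeq2 (0.0998). Gins3 had 12.1, 12.1, 13.3 and 11.6 CPM with corticosterone and 13.9, 15.1, 13.4 and 13.3 CPM in medium. Its groups were barely apart, with a log2 fold change of -0.18 ± 0.061 and an edgeR adjusted p of 0.0302 in 8 libraries and 0.12 in 6. The call of Gins3 ended without corticosterone replicate 1, 2 or 4 (adjusted p = 0.0642, 0.0631 and 0.0886) or medium replicate 1 or 2 (0.0680 and 0.101). Gins2 had the highest level per length of this group when all its annotated transcripts were summed, short ones included. Of its counts in medium 11.6% were on a retained intron of 511 nt and 4.25% on a processed transcript of 473 nt. The gene had 54.4, 49.8, 47.9 and 48.98 CPM with corticosterone and 53.6, 53.04, 57.7 and 57.5 CPM in medium. Corticosterone replicate 1 lay among the medium libraries, and the log2 fold change was -0.14 ± 0.044 (edgeR adjusted p = 0.0233). This call ended without corticosterone replicate 3 or 4 (adjusted p = 0.0697 and 0.0784) or medium replicate 3 or 4 (0.0685 and 0.0780). Of the 31-base stretches of Gins2 transcripts 33.8% occur in no other gene, and 66.2% also occur in Gse1, on the opposite strand. The strand setting of the counting is not given in the sources used here, so it is not known whether reads of the 2 genes were told apart there. Cdc45, the helicase's other activator, went from 49.3 ± 2.12 to 43.02 ± 0.913 CPM (mean ± SD, n = 4) without overlap (log2 fold change -0.20 ± 0.036, edgeR adjusted p = 0.000808).

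The 4 subunits of DNA polymerase alpha-primase fell by nearly the same amount, from -0.24 to -0.27 on the log2 scale. Pola1, the catalytic subunit (ENSMUSG00000006678.6, chromosome X, 93304767 to 93632155), had 73.9, 74.2, 73.1 and 72.6 CPM with corticosterone and 83.5, 88.6, 92.96 and 88.9 CPM in medium. The corticosterone libraries differed by little and all lay below the medium ones (log2 fold change -0.27 ± 0.031, edgeR adjusted p = 1.9e-05). Pola2, its accessory subunit, had 55.8, 58.5, 53.4 and 56.2 CPM with corticosterone and 65.5, 66.2, 67.2 and 65.5 CPM in medium. Its groups were apart too (log2 fold change -0.24 ± 0.031, edgeR adjusted p = 4.73e-05). Prim1, the catalytic primase subunit, went from 53.9 ± 3.02 to 45.1 ± 1.82 CPM (mean ± SD, n = 4, log2 fold change -0.26 ± 0.043, edgeR adjusted p = 0.000422). Prim2, the large primase subunit, went from 36.4 ± 1.23 to 30.4 ± 1.69 CPM (log2 fold change -0.26 ± 0.046, edgeR adjusted p = 0.000626), and neither gene's groups overlapped.

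Among the extending polymerases 4 of 5 genes fell. Pole, the catalytic subunit of the leading-strand polymerase epsilon (ENSMUSG00000007080.14, chromosome 5, 110286306 to 110337474), had 87.97, 92.3, 90.4 and 87.7 CPM with corticosterone and 114, 115.4, 115.1 and 117 CPM in medium. The medium libraries lay close together and above all corticosterone ones (log2 fold change -0.37 ± 0.025, edgeR adjusted p = 1.3e-07). Pold2, an accessory subunit of the lagging-strand polymerase delta, had 82.3, 83.3, 75.7 and 77.8 CPM with corticosterone and 83.5, 82.1, 84.9 and 85.5 CPM in medium. Corticosterone replicates 1 and 2 lay among the medium libraries and replicates 3 and 4 below them. The log2 fold change of Pold2 was -0.075 ± 0.032 (edgeR adjusted p = 0.0882) in 8 libraries and -0.13 ± 0.035 (adjusted p = 0.00768) in 6, and without corticosterone replicate 2 alone the adjusted p was 0.0371. The call in 6 libraries ended without corticosterone replicate 3 (adjusted p = 0.0863). The groups were apart for the other 3 genes. Pold1, the catalytic subunit of delta, went from 90.4 ± 5.81 to 79.4 ± 1.68 CPM (mean ± SD, n = 4, log2 fold change -0.19 ± 0.040, edgeR adjusted p = 0.00241). Pold3, an accessory subunit of delta, went from 49.9 ± 1.80 to 41.7 ± 1.14 CPM (log2 fold change -0.26 ± 0.035, edgeR adjusted p = 8.16e-05). Pole2, an accessory subunit of epsilon, went from 18.1 ± 1.85 to 14.1 ± 0.0831 CPM (log2 fold change -0.36 ± 0.066, edgeR adjusted p = 0.000853).

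PCNA is the ring that keeps polymerases on DNA, and replication factor C loads it. Pcna (ENSMUSG00000027342.14, chromosome 2, 132249162 to 132253314) had 148, 156, 149.70 and 162 CPM with corticosterone and 191, 199, 198 and 198 CPM in medium. It fell to 0.784 of medium with no overlap (log2 fold change -0.35 ± 0.031, edgeR adjusted p = 1.62e-06). Its pseudogene Pcna-ps2 shares 23.3% of the 31-base stretches of Pcna, held 642 to 1545 counts per library and changed by 0.058 (edgeR adjusted p = 0.883). Rfc3, a small subunit of the loader (chromosome 5, 151642756 to 151651242), had 29.2, 34.5, 33.6 and 33.7 CPM with corticosterone and 39.7, 42.2, 44.8 and 41.1 CPM in medium. Replicate 1 was the lowest, and the groups were apart (log2 fold change -0.36 ± 0.055, edgeR adjusted p = 0.000229). Rfc1, the large subunit of the loader, had 122, 122, 114 and 119.2 CPM with corticosterone and 119.9, 123, 124 and 122 CPM in medium. Its groups overlapped through replicates 1 and 2 (log2 fold change -0.032 ± 0.027, edgeR adjusted p = 0.381). The remaining small subunits of the loader fell as well. Rfc4 went from 29.96 ± 1.41 to 24.5 ± 1.34 CPM (mean ± SD, n = 4, log2 fold change -0.29 ± 0.051, edgeR adjusted p = 0.000594). Rfc2 went from 87.99 ± 3.30 to 80.04 ± 2.90 CPM (log2 fold change -0.14 ± 0.034, edgeR adjusted p = 0.00616). Rfc5 went from 64.7 ± 1.90 to 58.2 ± 3.85 CPM (log2 fold change -0.15 ± 0.044, edgeR adjusted p = 0.0137). The groups were apart for Rfc2 and Rfc4 and overlapped for Rfc5, by corticosterone replicate 1. The call of Rfc5 ended without corticosterone replicate 4 (adjusted p = 0.0577).

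Replication protein A covers single-stranded DNA, and all 3 of its genes fell. Rpa1, the large subunit and the most abundant per length (ENSMUSG00000000751.13, chromosome 11, 75298166 to 75348324), had 234, 254.6, 242 and 239.7 CPM with corticosterone and 262, 267, 267 and 269 CPM in medium. The groups were apart by a small step (log2 fold change -0.13 ± 0.027, edgeR adjusted p = 0.00189). Rpa3, the small subunit, had 10.8, 8.75, 12.7 and 11.6 CPM with corticosterone and 13.8, 13.8, 14.2 and 15.01 CPM in medium. Corticosterone replicate 2 was the lowest, and the groups were apart. The log2 fold change of Rpa3 was -0.37 ± 0.096 (edgeR adjusted p = 0.00905) in 8 libraries and -0.22 ± 0.071 (adjusted p = 0.0232) in 6. The call in 6 libraries ended without corticosterone replicate 4 (log2 fold change -0.15, adjusted p = 0.236), without medium replicate 4 (0.0615) and in DESeq2 (0.112). In 8 libraries a model with its own term for corticosterone replicates 1 and 2 also ended it (log2 fold change -0.22, adjusted p = 0.0640). Rpa2, the middle subunit, went from 26.99 ± 1.25 to 21.1 ± 0.943 CPM (mean ± SD, n = 4) without overlap (log2 fold change -0.35 ± 0.048, edgeR adjusted p = 7.65e-05).

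Lig1 and Fen1 finish the lagging strand. Lig1, the DNA ligase that seals Okazaki fragments (ENSMUSG00000056394.17, chromosome 7, 13277283 to 13311433), had 131, 138, 134 and 133 CPM with corticosterone and 171, 174, 176 and 174 CPM in medium. The spread within each group was small against the gap between them (log2 fold change -0.38 ± 0.024, edgeR adjusted p = 8.62e-08). Fen1, the flap endonuclease (chromosome 19, 10199132 to 10204169), had 69.5, 72.3, 71.8 and 68.99 CPM with corticosterone and 90.02, 90.3, 94.5 and 95.7 CPM in medium. It fell without overlap too (log2 fold change -0.39 ± 0.029, edgeR adjusted p = 3.23e-07). Fen1 shares 76.8% of its 31-base stretches with the annotated gene Gm10143, which was not analysed here.

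All 4 nucleotide genes fell, with log2 fold changes from -0.26 to -0.35. Tyms, thymidylate synthase (ENSMUSG00000025747.12, chromosome 5, 30058202 to 30073617), had 94.5, 92.3, 90.1 and 87.2 CPM with corticosterone and 106, 108, 112 and 109.5 CPM in medium. Tk1, the thymidine kinase of S phase (chromosome 11, 117815526 to 117826092), had 129, 132, 119.8 and 129 CPM with corticosterone and 159, 158, 175 and 157 CPM in medium. Rrm2, the small subunit of ribonucleotide reductase made in S phase (chromosome 12, 24708241 to 24714146), had 139, 135, 140.4 and 141 CPM with corticosterone and 169.6, 160.2, 164 and 171 CPM in medium. In each of the 3 genes the groups were apart, and medium replicate 3 was the highest for Tyms and Tk1. The log2 fold changes were -0.26 ± 0.030, -0.35 ± 0.040 and -0.26 ± 0.027, with edgeR adjusted p-values of 1.88e-05, 1.87e-05 and 8.71e-06. Rrm1, the large subunit of ribonucleotide reductase, went from 350.0 ± 7.40 to 288 ± 5.40 CPM (mean ± SD, n = 4) without overlap (log2 fold change -0.28 ± 0.024, edgeR adjusted p = 1.48e-06).

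All 4 regulators of S-phase entry fell. Ccne1, cyclin E1 (ENSMUSG00000002068.16, chromosome 7, 38097984 to 38107534), had 16.2, 17.3, 16.7 and 16.5 CPM with corticosterone and 21.8, 21.6, 21.1 and 22.4 CPM in medium. It fell to 0.769 of medium without overlap (log2 fold change -0.38 ± 0.043, edgeR adjusted p = 1.4e-05). E2f1, an activating E2F factor (ENSMUSG00000027490.17, chromosome 2, 154559407 to 154569892), had 40.5, 40.4, 37.5 and 40.2 CPM with corticosterone and 45.9, 47.1, 50.1 and 47.9 CPM in medium. Replicate 3 was the lowest with corticosterone and the highest in medium, and the groups were apart (log2 fold change -0.27 ± 0.038, edgeR adjusted p = 0.000106). E2f2, a second activating factor (chromosome 4, 136172394 to 136196057), had 2.56, 2.33, 2.40 and 2.49 CPM with corticosterone and 3.84, 3.05, 3.62 and 3.87 CPM in medium. Its groups were apart at the lowest level of all 54 genes, with 63 counts in the library that held the fewest, and its log2 fold change of -0.56 ± 0.12 had the widest error (edgeR adjusted p = 0.00241). Ccne2, cyclin E2, went from 27.5 ± 0.888 to 21.9 ± 0.495 CPM (mean ± SD, n = 4) without overlap (log2 fold change -0.33 ± 0.041, edgeR adjusted p = 3.23e-05). Ints8, on the opposite strand, shares 12.5% of the sequence of Ccne2. Ints8 had a mean of 67.5 CPM in medium and fell too (log2 fold change -0.21, edgeR adjusted p = 0.000218). Whether reads from the shared part were told apart is not known, and their part in the change of Ccne2 was not tested.

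The genes that rebuild chromatin behind the fork fell as well. Chaf1b, a subunit of chromatin assembly factor 1 (ENSMUSG00000022945.12, chromosome 16, 93883901 to 93906115), had 30.4, 32.2, 34.04 and 32.2 CPM with corticosterone and 39.6, 41.6, 43.9 and 41.9 CPM in medium. Uhrf1, which guides the copying of DNA methylation (chromosome 17, 56303321 to 56323486), had 135, 133, 129.8 and 129 CPM with corticosterone and 153, 153, 149.99 and 159.6 CPM in medium. Both were lower in every corticosterone library, with log2 fold changes of -0.37 ± 0.044 and -0.23 ± 0.026 and edgeR adjusted p-values of 2.11e-05 and 2.08e-05. Chaf1a, the large subunit, went from 118.8 ± 4.81 to 104 ± 6.25 CPM (mean ± SD, n = 4) without overlap (log2 fold change -0.19 ± 0.044, edgeR adjusted p = 0.00471). Ubxn6, on the opposite strand, shares 37.4% of the 31-base stretches of Chaf1a, and whether reads from that part were told apart is not known either.

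Levels can be compared between genes once counts are divided by transcript length, and they were set on a scale of 1000000 per library. In medium the order began with Tyms at 241 ± 3.73 (SD, n = 4), Pcna at 228 ± 3.44 and Tk1 at 213 ± 9.46. Tyms was above Pcna, and Pcna above Tk1, in every medium library. Rrm1 at 189 ± 12.9 and Rpa1 at 187 ± 4.84 overlapped each other. The 6 helicase subunits lay between 171 ± 2.05 for Mcm5 and 74.1 ± 2.04 for Mcm4, a range that also held Rfc2, Rrm2, Lig1, Pold2 and Gins2. A gene's level sums all its annotated transcripts, and counts on short ones weigh more, as in Gins2. The lowest levels were those of E2f2 at 1.10 ± 0.119, Mcm8 at 6.56 ± 0.499, Gins3 at 9.38 ± 0.897, Orc1 at 9.68 ± 1.34 and Mcm9 at 11.1 ± 5.08. Gins3, Orc1 and Mcm9 overlapped, and the range of Mcm9 also held all values of Mcm8.

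**Figure D3:**
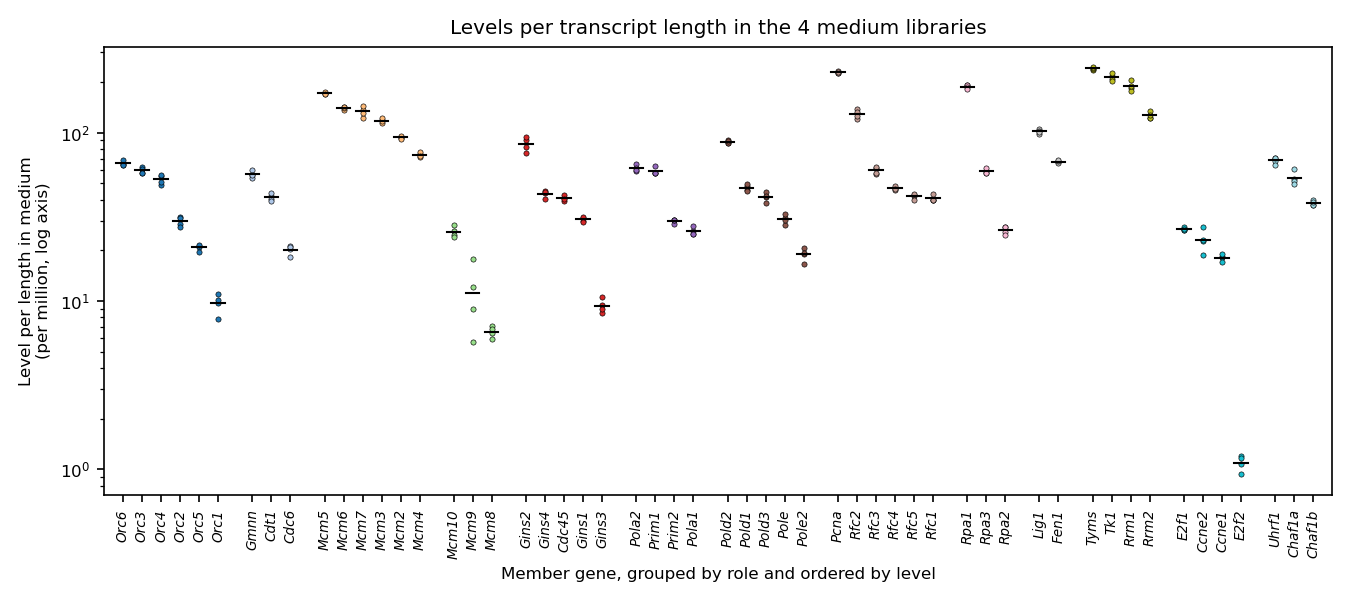
Dots are the level per length of each gene in the 4 medium libraries on a log axis, and lines are means; genes are grouped by role, with a color for each role. Levels run from 1.10 for E2f2 to 241 for Tyms, and replicates lie close together except for Mcm9.

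Whether partners in a complex moved together was asked with the log2 ratio of their CPM in each library, in 12 pairs. In 8 pairs the groups overlapped. In the other 4 they did not, and the two-sided exact permutation test gave its smallest possible value, p = 0.02857, which became 0.0857 after adjustment over the 12 pairs, so no pair passed. With so few libraries a pair that stood alone could not have passed, so the test cannot decide on single pairs. Gins1 over Gins4 was -1.23, -1.34, -1.36 and -1.33 with corticosterone and -0.83, -0.92, -1.08 and -1.06 in medium, a difference of -0.34. Mcm3 over Mcm6 was -0.27, -0.16, -0.24 and -0.19 with corticosterone and -0.042, -0.041, -0.037 and -0.041 in medium, a difference of -0.18. Both ratios were lower in every corticosterone library than in any medium library, and that of Mcm3 over Mcm6 hardly varied in medium. Cdt1 over Gmnn differed by -0.18 and Pold1 over Pold2 by -0.11. When the ratios were taken of levels per length, the groups stayed apart for Cdt1 over Gmnn and overlapped for the other 3 pairs. The differences there were -0.26 for Gins1 over Gins4, -0.044 for Mcm3 over Mcm6 and -0.085 for Pold1 over Pold2. The overlap came from corticosterone replicate 1 alone for Mcm3 over Mcm6 (0.077) and from replicate 2 alone for Gins1 over Gins4 (-0.56). For Pold1 over Pold2 corticosterone replicates 3 and 4 lay among the medium libraries as well. Without corticosterone replicates 1 and 2 the groups stayed apart in the CPM ratios of these 4 pairs. The differences were -0.37 for Gins1 over Gins4, -0.18 for Mcm3 over Mcm6, -0.16 for Cdt1 over Gmnn and -0.062 for Pold1 over Pold2. For Pold1 over Pold2 the highest corticosterone value was 0.0449 and the lowest medium value 0.0451. With 2 corticosterone libraries against 4 the smallest possible p is 0.1333.

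**Figure D4:**
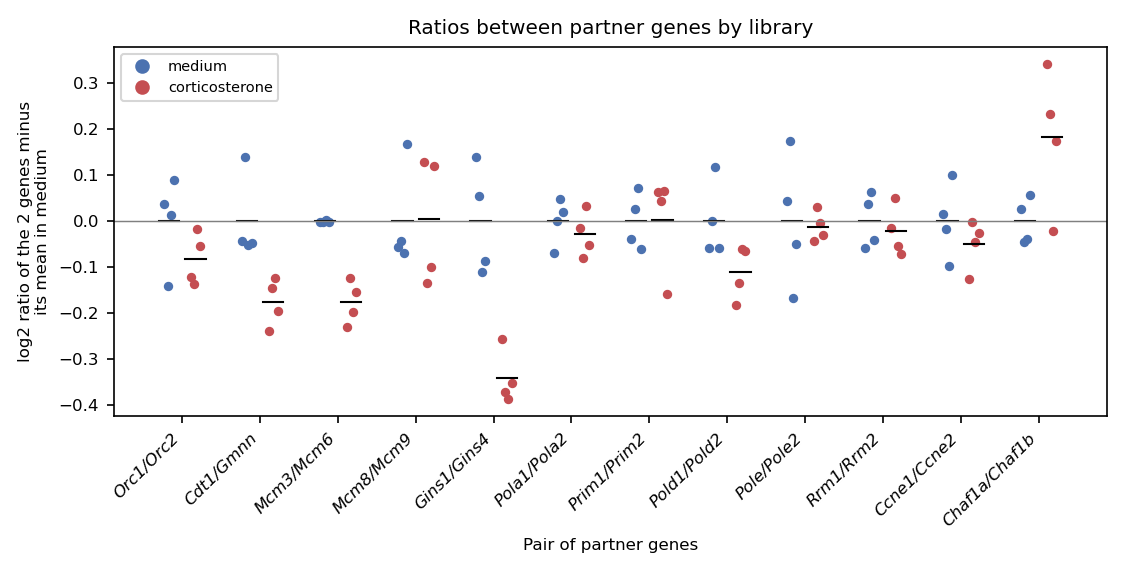
Points are the log2 CPM ratio of 2 partner genes in each library minus the mean of the medium libraries, blue for medium and red for corticosterone, and lines are group means. Red points lie below all blue points for Cdt1/Gmnn, Mcm3/Mcm6, Gins1/Gins4 and Pold1/Pold2.

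Other genes of the same pathways were described by counts from lists made for this purpose. Among 37 further genes of the fork and of origin firing 30 fell and 1 rose (median log2 fold change -0.23), where 20.6% of all tested genes fell and 19.5% rose. The smallest p-values were those of Clspn, which encodes the checkpoint adaptor claspin (-0.35, edgeR adjusted p = 2.58e-07), of Ticrr, needed for origin firing (-0.49, adjusted p = 7.38e-07), and of Dnmt1, the maintenance DNA methyltransferase (-0.22, adjusted p = 2.12e-06). Top1, a topoisomerase, rose slightly (log2 fold change 0.065, edgeR adjusted p = 0.0364), a call that ended in 6 libraries (adjusted p = 0.126).

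Among 36 further genes of nucleotide synthesis 14 fell, 4 rose and 18 did not pass, with a median of -0.068, where 20.6% of all tested genes fell and 19.5% rose. Ctps, the CTP synthase, had 112, 105, 107 and 104 CPM with corticosterone and 157, 157, 161 and 169 CPM in medium. It fell without overlap (log2 fold change -0.59 ± 0.031, edgeR adjusted p = 1.19e-08), and Adss and Dck, of AMP synthesis and deoxynucleoside salvage, fell as well (log2 fold changes -0.23 and -0.29, adjusted p = 7.3e-06 and 1.1e-05). The 4 that rose, a smaller share than among all genes, were Guk1, a guanylate kinase (0.32), Dhodh, of pyrimidine synthesis (0.22), Rrm2b, the p53-induced small subunit of ribonucleotide reductase (0.20), and Impdh1, of GTP synthesis (0.17). Rrm2b, the counterpart of Rrm2 outside S phase, stood at 23.9 ± 0.417 CPM in medium and 27.5 ± 1.15 CPM with corticosterone (SD, n = 4, edgeR adjusted p = 0.00181).

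Among 31 regulators of the E2F and RB pathway and of S-phase entry 18 fell and 6 rose, with a median of -0.20. The share that rose was close to the 19.5% of all tested genes, and the share that fell was above their 20.6%. Ccna2, the cyclin of S phase and G2, fell (log2 fold change -0.34, edgeR adjusted p = 5.7e-07). The 6 that rose were Ccnd3 and Cdk6, a D-type cyclin and its kinase (0.49 and 0.21), Myc, a growth-promoting transcription factor (0.52), Cdkn1a, which encodes the inhibitor p21 (0.19), Rb1, the retinoblastoma gene (0.28), and Fbxw7, a ubiquitin ligase subunit that targets cyclin E (0.24). Ccnd3 had 173, 171, 172 and 170.0 CPM with corticosterone and 121, 123, 124 and 119.1 CPM in medium, and Myc had 72.2, 67.2, 69.4 and 67.01 CPM and 46.4, 47.3, 48.6 and 50.5 CPM. Both were higher in every corticosterone library (edgeR adjusted p = 3.67e-09 and 1.42e-07). Among 30 genes of mitosis, a later step, all 30 fell, with a median of -0.32; Foxm1, Cenpf and Cenpe had the smallest p-values.

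**Figure D5:**
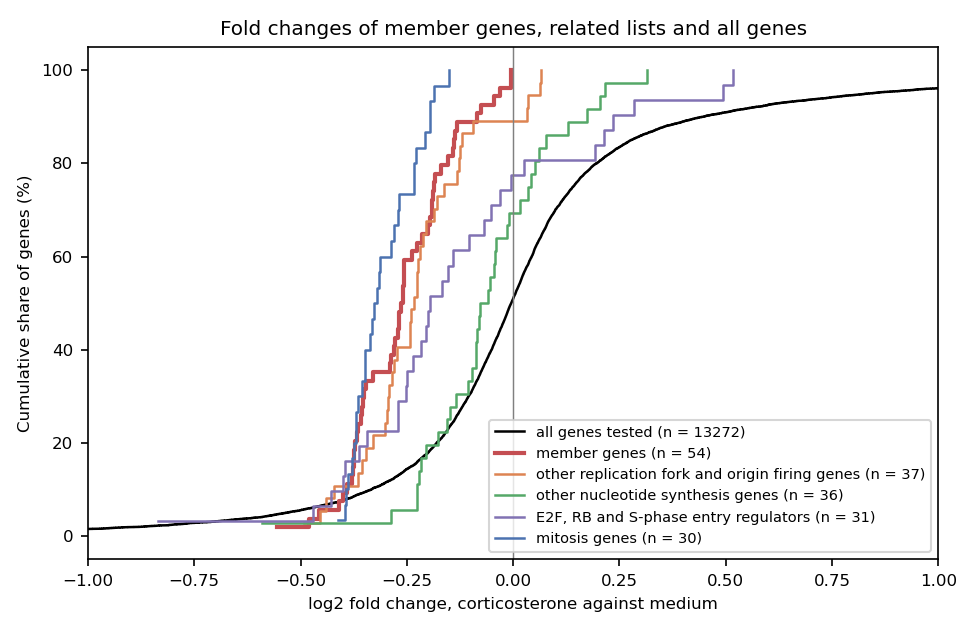
Curves give the cumulative share of genes by log2 fold change for all 13272 genes tested (black), the 54 member genes (thick red) and 4 related lists; the axis is limited to -1 to 1. Over most of their range the member, fork and mitosis curves lie left of the black curve, and the other nucleotide genes lie nearest to it.

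The library labels and the cells were checked with genes outside the list. The 5 glucocorticoid-induced genes looked up (Fkbp5, Per1, Tsc22d3, Ddit4 and Sgk1) all rose, and their summed level was 1225 to 1250.2 CPM with corticosterone and 372 to 387 CPM in medium. All 12 endothelial markers were present, with sums of 9163 to 9515 CPM and 8460 to 9013 CPM. Of these 12, 4 fell and 6 rose, with log2 fold changes from -1.25 for Vwf to 0.53 for Esam. Markers of other cell types were at trace levels beside them. The 8 fibroblast markers summed to 7.46 to 8.61 CPM with corticosterone and 22.9 to 25.1 CPM in medium, and of the 4 that could be tested Pdgfra, Col1a1 and Fbln1 fell. The 10 pericyte and smooth muscle markers summed to 5.91 to 7.83 CPM and 8.24 to 9.20 CPM. The 12 neural markers summed to 2.18 to 2.82 CPM and 1.69 to 2.37 CPM with Aqp4, Syt1 and Olig2 at 0 counts, and the 8 leukocyte markers to 1.61 to 2.24 CPM and 1.76 to 2.59 CPM. The sums of fibroblast and of pericyte markers were lower with corticosterone, as those of the replication genes were, and their part in the result was not tested.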

How the data were processed

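RNA of 8 bEnd3 samples was sequenced from poly(A)-selected directional libraries. As values the authors deposited estimated counts per gene, not normalized, and per-library transcript tables with an estimated count, an effective length and a TPM. Per the submitters' processing notes, bcl2fastq, kallisto 0.46.1, mm10 and GRCm38 were used; the transcript index, strand setting, read length and gene summing, all not given in the sources used here, remain unknown. TPM, per the file headers kallisto's abundance per 1000000 transcripts, depends on the effective length. In corticosterone replicates 1 and 2 100% of the 61001 transcripts of at least 1000 nt had an effective length 1 nt above their length, against 0% in the other 6 libraries. The counts, which are not divided by that length, were therefore used for the tests. The split of counts between transcripts still differed in those 2 libraries for some genes. Cdc45-201 held 38.9 and 41.2% of the Cdc45 counts there and 61.9 to 65.5% in the other libraries. Whether gene counts of members that share sequence with other genes carry such a difference was not tested. For 99.997% of genes the gene counts matched the summed transcript counts to within 0.5.

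The 54 members, the role groups and the other lists were chosen with earlier results of these data known, so no count over them is independent evidence. Estimated counts were rounded and fitted in edgeR 4.0.16 (R 4.3.3) with filterByExpr, TMM scaling and the robust quasi-likelihood F test, group as the single term, and Benjamini-Hochberg adjustment over all genes tested. Totals of 19.7 to 46.2 M counts set the precision. SE is the size of the log2 fold change over the root of F. Levels per length are estimated counts over the mean effective length of the 6 libraries, scaled to 1000000. Ratios used CPM with a prior of 0.5 counts and an exact permutation test (scipy 1.17.1). Unique sequence is the share of a gene's 31-base stretches found in no other annotated gene, and shared sequence the share also found in a named gene, both counted without strand. The edgeR script was tested on simulated data.

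Values in every library are given for 37 genes by a written rule: per role group the largest change and the highest level per length, every gene not passing or differing between the 8 and 6 libraries, and Mcm2, Pcna, Rrm2, Ccne1, E2f1 and Orc1. Of other lists, up to 3 genes with the smallest p and those against the list's direction are named. Promoters of Ccne2, Gins1, Gins2, Gins4, Gmnn, Mcm4, Pole, Prim2 and Rfc2 were not matched. Alternatives were DESeq2 1.42.0, limma 3.58.1 limma-trend on log2 TPM with pseudocounts of 0.1, 0.5 and 1, other scalings and filters, a replicate block, a term for corticosterone replicates 1 and 2, and leaving out each library. The rule's comparison without those replicates was run throughout. Same-numbered replicates did not deviate together (correlations from -0.065 to 0.054 over 10440 genes).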

Additional observations from a re-analysis of the deposited data

Results flagged for a closer look

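In 8 of 110 groups of 4 libraries a single library stood far from the other 3, by Dixon's criterion, which chance alone meets in about 1 in 20 groups. With corticosterone, Mcm5 was low in replicate 1, at 212 CPM against 224 to 225 CPM in the others. Rfc3 was low in the same library, at 29.2 CPM against 33.6 to 34.5 CPM. E2f1 was low in corticosterone replicate 3, at 37.5 CPM against 40.2 to 40.5 CPM. In medium, replicate 3 was high for 4 genes. Prim1 had 58.4 CPM there against 52.0 to 52.8 CPM, Pold1 had 99.0 CPM against 86.2 to 88.3 CPM, Rpa2 had 28.8 CPM against 26.1 to 26.6 CPM, and Tk1 had 175 CPM against 157 to 159 CPM. Medium replicate 3 was the library with the fewest counts. Pcna was low in medium replicate 1, at 190.6 CPM against 198 to 199 CPM. All 8 genes fell, also when that library was left out.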

How the results depend on the processing

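In every setting that kept more than 1 corticosterone library, the count of member genes that rose was 0. On counts, 41 to 50 fell in those settings. Without a library in turn 42 to 47 fell in 8 libraries, beside 2400 of 13462 to 2591 of 13493 of all genes. Without a medium library in turn 43 to 46 fell in 6 libraries, beside 2184 of 13619 to 2534 of 13593 of all genes. DESeq2 called 43 and 41 lower, library-size scaling 50 and 49. Over all genes tested DESeq2 called 2413 of 13272 and 1941 of 13639 lower, and library-size scaling 3365 and 2983. On TPM, limma-trend called 18 lower in 8 libraries with each pseudocount, 10 without a filter and 21 with one effective length. Over all genes it called 586 to 588 of 12772, 479 of 24566 and 667 of 12833 lower in these settings. In 6 libraries it called 31 to 38 members lower. Over all genes the calls there ran from 1124 of 23434 without a filter to 1608 of 12637 with one effective length. One effective length moved the median of all genes by -0.17. The medians in 8 libraries were -0.29 with library-size scaling, -0.22 (no filter), -0.23, -0.22 and -0.22 (pseudocounts 0.1, 0.5 and 1) on TPM, and -0.43 with one effective length. Without a library in turn they were -0.27 to -0.25. In 6 libraries they were -0.30 with library-size scaling, -0.29, -0.29, -0.29, -0.28 and -0.29 on TPM, -0.28 with upper-quartile scaling, and -0.29 to -0.26 without a library in turn.

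Replicate numbers did not pair the samples. With a replicate block 43 and 44 member genes fell, beside 2522 of 13272 and 1886 of 13639 of all genes. The median in 6 libraries was -0.30. Mcm8, Gins2 and Gins3 in 8 libraries and Mcm9 and Rfc2 in 6 no longer passed.

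The sign turned for genes that had not passed, apart from Gins2, Rfc2 and Rfc5 on TPM. In 8 libraries, with TPM (no filter, then pseudocounts 0.1, 0.5 and 1), Orc2 was 0.25, 0.25, 0.25 and 0.25, Orc4 0.12, 0.12, 0.12 and 0.12, Orc5 0.088, 0.090, 0.088 and 0.087, Rfc1 0.11, 0.11, 0.11 and 0.11, Rfc2 0.061, 0.061, 0.061 and 0.061, and Rfc5 0.15, 0.15, 0.15 and 0.15. With one effective length, Orc2 was 0.19, Orc4 0.13, Gins2 0.22, Rfc2 0.056 and Rfc5 0.21. DESeq2 gave 0.0017 for Orc4 and 0.0029 for Orc5, and no filter 0.00066 and 0.0014. In 6 libraries Orc4 was 0.0997, 0.1004, 0.0997 and 0.0987 on TPM (same order) and 0.094 with one effective length. Orc5 was 0.0019 with a CPM filter, 0.00065 without a filter and 0.011 with the block. Without a library in turn Orc4 ran from -0.031 to 0.011 and Orc5 from -0.041 to 0.030, and in 6 libraries Orc4 from -0.043 to 0.0040 and Orc5 from -0.031 to 0.015. The cause was not tested.

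Of the ratios, Prim1 over Prim2 turned to -0.047 without corticosterone replicates 1 and 2 and -0.0064 per length, and Mcm8 over Mcm9 to -0.30 per length. Leaving out a library in turn, an alternative added after seeing the data, gave -0.018 to 0.057 for Prim1 over Prim2, -0.038 to 0.060 for Mcm8 over Mcm9 and -0.068 to 0.046 for Pole over Pole2.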

Other observations

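In 30 of the 54 genes a single annotated transcript held at least 90% of the counts in medium. E2f1 was among the others, and was chosen here after its values were seen. Its transcript E2f1-201 held 26.0, 31.3, 33.7 and 34.1% of the gene's counts in corticosterone replicates 1 to 4, and 26.8, 22.6, 23.7 and 24.0% in the medium libraries. The 2 corticosterone libraries quantified with the same effective length as medium were thus above all medium libraries, and replicate 1 was not. The difference was not tested.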
